A study of Homo sapiens with 18 samples.

Results

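The comparison described here set SK-N-MC cells exposed for 1 week to 50 nM rotenone (1w50nM) directly against cells exposed for 1 week to 5 nM (1w5nM). Its members are the 3 arrays whose labels name 50 nM and 1 week and the 3 whose labels name 5 nM and 1 week, 6 of 18 arrays in all. SK-N-MC is a human neuroepithelioma line, a single line of tumor origin without any introduced gene, and the study grew it as a dish model of toxicant exposure in medium without sodium pyruvate. The other arrays hold vehicle cells of 1 week (1w0nM, given 0.05% ethanol) and the vehicle, 5 nM and 50 nM groups of 4 weeks, with 3 arrays each. The submitters call 5 nM sublethal in one place and marginally toxic in another, and 50 nM slightly to moderately toxic. Each array carried RNA pooled from 5 dishes of 1 experiment, and 3 experiments were performed.

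Rotenone is a plant-derived pesticide that blocks electron transfer from NADH to ubiquinone in complex I of the respiratory chain, and it also binds tubulin and destabilizes microtubules. Cells short of respiratory electron transfer commonly lean on glycolysis, and limits on the synthesis of aspartate, asparagine and serine can engage the integrated stress response, in which the factors ATF4 and CHOP drive genes of amino acid synthesis and transport. Loss of microtubules is known to arrest cells in mitosis. The question was therefore which of these programs separated the higher from the lower dose at the earlier time.

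The labels of 2 of the 6 arrays are in doubt, and this touches every result below. The gene lists published by the study carry a mean signal of each treatment group beside each probe set. The mean of the 3 arrays labelled 1w50nM came within 2% of the listed mean for 12 of 112 probe sets. When 1w5nM replicate 2 took the place of 1w50nM replicate 3, this rose to 110 of 112. Likewise, the 3 arrays labelled 1w5nM met the listed mean of their group for 8 of 75 probe sets, and for 73 of 75 once 1w50nM replicate 3 took the place of 1w5nM replicate 2. Over all genes the correlations did not settle the matter. On log2 signals, 1w5nM replicate 2 correlated at 0.981 to 0.988 with the other arrays of its label and at 0.973 to 0.980 with those labelled 1w50nM, and 1w50nM replicate 3 at 0.981 to 0.984 with its own label and at 0.973 to 0.985 with 1w5nM. Groups are given here as labelled. The counts over all genes, the medians of the leading lists and the differences of the called genes described are repeated with both arrays exchanged, and some also without both.

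A further array stood apart. Replicate 3 of the 1-week vehicle was below both other vehicle arrays for 51.3% of all 9162 genes tested, but for 93.7% (118 of 126) of the genes that were lower with 50 nM by the test described next. Its log2 signal differed from the mean of the other vehicle arrays by a median of -0.76 over those 126 genes and of -0.11 over all genes. Across all genes, this difference within the vehicle group and the difference between the doses had a Pearson correlation of 0.51. It was 0.48 after quantile normalization of the 6 dose arrays alone, with the vehicle signals as deposited. The differences share no array, and genes are not independent replicates. The 75th percentile of signal on vehicle replicate 3 was 260, beside 314 and 331 on the other vehicle arrays. On the 1w50nM arrays it was 272 to 284, beside 306 to 324 in 1w5nM. Part of the likeness may thus be a shift of whole arrays, and this was not tested. The vehicle arrays took no part in the comparison, and what else replicate 3 shares with the 1w50nM arrays was not tested. The 3'-to-5' log2 ratios of the GAPDH and ACTB control probe sets, a measure of RNA integrity, lay between -0.12 and 0.13 on the 6 arrays compared. The reference genes were near level. B2M, which pairs with HLA class I heavy chains, gave 4802, 4083 and 4943 in 1w5nM and 4233, 4281 and 4774 in 1w50nM (log2 difference -0.05 ± 0.08, SE). GAPDH, a glycolytic enzyme, gave 8919, 9795 and 8911 in 1w5nM and 8669, 8634 and 8691 in 1w50nM (-0.09 ± 0.05), and ACTB, cytoplasmic actin, 7982, 8716 and 7826 in 1w5nM and 8233, 7661 and 8623 in 1w50nM, with a fitted difference of less than 0.01. The sign of the ACTB difference turned under quantile normalization and under median scaling, and those of GAPDH and B2M under median scaling.

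At 1 week, 50 nM differed from 5 nM mainly through lower signals of many genes, most by less than 2-fold. With the array signals as deposited, 133 of 9162 genes (1.45%) passed an adjusted p of 0.05 in limma on these 6 arrays, 126 lower (1.38%) and 7 higher (0.0764%) with 50 nM. Their adjusted p-values lay between 0.0247 and 0.0500. At least 2-fold were 26 genes (0.284% of those tested), 12 of them among the 133. A wider set of 1655 genes (18.1%) was lower and 370 (4.04%) higher at an unadjusted p under 0.05, and the arrays of the groups did not overlap for 1965 genes lower (21.4%) and 516 higher (5.63%) with 50 nM. This excess of lower genes came with a shift of the whole distribution. The median log2 difference of all genes was -0.08, and in 5 equal bins of signal level it was 0.01, -0.06, -0.15, -0.14 and -0.04 from the dimmest to the brightest. The 75th percentile of the arrays was 306 to 324 in 1w5nM and 272 to 284 in 1w50nM. Quantile normalization of the 6 arrays brought the median to 0.02 and left 760 genes lower (8.3%) and 910 higher (9.93%) at an unadjusted p under 0.05, with none called.

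**Figure D1:**
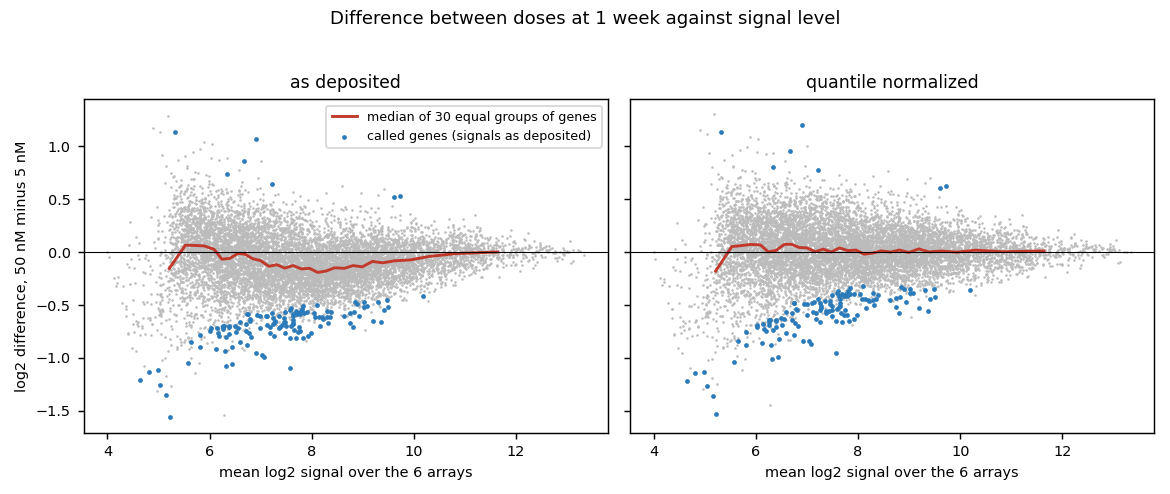
Log2 difference between 50 nM and 5 nM at 1 week (vertical) against the mean log2 signal of the 6 arrays (horizontal) for 9162 genes, with signals as deposited on the left and quantile normalized on the right. The red median line dips below 0 at middle signals on the left and stays close to 0 over most of the range on the right. The 133 genes called on the left (blue) keep their side on the right, where the same arrays are shown.

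The calls changed with the handling of the arrays in doubt and with the scaling. Without both doubted arrays, limma called 754 genes lower (8.23%) and 124 higher (1.35%). All 133 genes then kept their direction at an unadjusted p under 0.05, as they did after quantile normalization. The 133 were chosen on these same arrays, so this was largely set by the choice and is no separate support. With both arrays exchanged, 7 genes were called, all lower (0.0764%), and none of them was among the 133. Of the 133, 131 kept their direction and 6 an unadjusted p under 0.05, and the log2 difference of 127 was smaller by over 1.5 times or turned. By comparison, 598 of all genes tested were lower and 494 higher at that threshold when exchanged. The median of the 126 lower genes was -0.68 as labelled, -0.70 without both arrays and -0.27 exchanged. Over all genes, 228 were lower (2.49%) and 14 higher (0.153%) at an unadjusted p under 0.05 under both groupings, which share 4 arrays in the same place. In the fit over all 18 arrays, 1 gene was called. Leaving out a single array gave 0 calls without 1w5nM replicate 3, 1w50nM replicate 1 or 1w50nM replicate 2, 1 call without 1w5nM replicate 2, 78 without 1w5nM replicate 1 and 503 without 1w50nM replicate 3, while between 1242 and 2220 genes stayed under an unadjusted p of 0.05. Other probe sets existed for 39 of the 133 genes, 53 in number, and 48 of these had the same direction, 23 of them at an unadjusted p under 0.05.

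The genes with the lowest signal under 50 nM relative to 5 nM were dim ones. COXFA4L2, also known as NDUFA4L2, is a mitochondrial protein induced by hypoxia. It gave signals of 50.7, 78.2 and 66.3 in 1w5nM and 10.9, 33.8 and 18.9 in 1w50nM. The groups were apart, and with 1 array of 1w50nM below the floor of 16 the gene was at least 2.95-fold lower (log2 -1.56 ± 0.29, adjusted p = 0.0445, limma). YEATS4, a reader of acylated histones in the NuA4 and SRCAP chromatin complexes, gave 61.0, 51.0 and 59.4 in 1w5nM and 21.8, 25.8 and 19.6 in 1w50nM. All 3 arrays of 1w50nM lay far below the lowest array of 1w5nM, a 2.56-fold fall (log2 -1.35 ± 0.21, adjusted p = 0.0290, limma). With both doubted arrays exchanged the log2 differences were -0.20 for COXFA4L2 and -0.44 for YEATS4 (unadjusted p = 0.722 and 0.334, limma). In both genes, the doubted arrays read like the other arrays of their labels. Both genes were chosen for groups that lie apart as labelled, so this has no bearing on which labels are right.

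Of the next lowest, 3 genes act on proteins or nucleotides. PPP2R2D, a regulatory subunit of protein phosphatase 2A, gave 45.7, 61.9 and 42.5 in 1w5nM and 10.8, 30.9 and 15.1 in 1w50nM. HERC4, a ubiquitin ligase, gave 65.7, 45.7 and 67.1 in 1w5nM and 9.49, 23.7 and 38.4 in 1w50nM. NT5C2, a nucleotidase of purine monophosphates, gave 57.2, 67.5 and 38.9 in 1w5nM and 28.6, 14.7 and 29.1 in 1w50nM. In all of these the groups were apart but the adjusted p missed the threshold (0.0504, 0.0563 and 0.0611). Their log2 differences were -1.31, -1.26 and -1.17, each a lower bound in size because at least 1 array of 1w50nM lay below 16. HERC4 kept its size with both arrays exchanged (-1.10, unadjusted p = 0.0104 in limma), whereas PPP2R2D came to -0.01.

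TCIM, a small regulator of Wnt signalling, gave 40.9, 57.1 and 56.2 in 1w5nM and 17.4, 25.7 and 21.4 in 1w50nM. CSGALNACT2, which starts and extends chondroitin sulfate chains, gave 35.1, 39.5 and 39.9 in 1w5nM and 14.0, 11.3 and 17.4 in 1w50nM. With 2 arrays of 1w50nM below 16, its fitted difference is a lower bound in size. The other probe set of CSGALNACT2 gave -0.47 (unadjusted p = 0.106, limma). BHLHE40, a transcriptional repressor that responds to hypoxia and to the circadian clock, gave 42.8, 40.2 and 41.6 in 1w5nM and 18.7, 19.8 and 18.3 in 1w50nM, the tightest of these groups. The fitted log2 differences of these called genes were -1.26, -1.21 and -1.13 (adjusted p = 0.0445 for each, limma), and -0.32, -0.42 and -0.38 with both arrays exchanged. The dose groups of each were apart. The vehicle arrays of BHLHE40 read 94.1, 11.7 and 6.69, so the spread of the vehicle covered both doses. GRAMD2B, a protein with a lipid-binding GRAM domain, gave 49.0, 49.2 and 41.9 in 1w5nM and 23.9, 17.7 and 23.8 in 1w50nM (-1.11 ± 0.23, adjusted p = 0.0445, and -0.41 exchanged). LINC00939, a long non-coding RNA, gave 77.6, 82.1 and 75.3 in 1w5nM and 39.0, 22.1 and 51.9 in 1w50nM and was not called (-1.14, adjusted p = 0.0525).

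Of all genes, ERBIN, UBE2V2 and LUM had the lowest p-values. ERBIN, a scaffold that binds the receptor ERBB2 at the basolateral membrane, gave 262, 303 and 273 in 1w5nM and 110, 140 and 144 in 1w50nM, and its vehicle arrays read 311, 332 and 153. It was 2.14-fold lower with 50 nM (-1.10 ± 0.14, adjusted p = 0.0247, and -0.38 with both doubted arrays exchanged), and vehicle replicate 3 was the vehicle array nearest to the 50 nM arrays. UBE2V2, a partner of the ubiquitin-conjugating enzyme UBC13, gave 853, 834 and 795 in 1w5nM and 514, 511 and 542 in 1w50nM (-0.66 ± 0.09, adjusted p = 0.0247, and -0.25 exchanged). All 3 arrays of 1w50nM were well below those of 1w5nM. LUM encodes lumican, a proteoglycan of collagen matrix and the most changed of the fibroblast and mesenchymal markers. It gave 121, 130 and 123 in 1w5nM and 61.7, 51.5 and 68.2 in 1w50nM and 142, 200 and 10.2 in the vehicle arrays. The dose groups were apart (-1.05 ± 0.15, adjusted p = 0.0247), with -0.43 when both arrays were exchanged. Of 18 such markers tested, 4 were lower (22.2%) and 2 higher at an unadjusted p under 0.05 and the median was -0.08, the same as over all genes.

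Of the 133 called genes, 6 had an unadjusted p under 0.05 also with both arrays exchanged. They are CYB561, which was higher, and 5 that were lower, RIF1, FZD1, ZEB2, PCMTD2 and TBX3. This share of the called genes is below that of all genes, of which 1092 of 9162 passed the same threshold when exchanged. RIF1 sets replication timing and steers the repair of DNA breaks. It gave 296, 277 and 336 in 1w5nM and 144, 164 and 214 in 1w50nM (-0.81 as labelled, -0.57 exchanged). FZD1, a Wnt receptor, gave 278, 259 and 292 in 1w5nM and 149, 157 and 204 in 1w50nM (-0.71 and -0.48). In both, 1w50nM replicate 3 was the brightest of its group and 1w5nM replicate 2 the dimmest, and the groups still did not overlap. ZEB2, a repressor of epithelial genes, gave 144, 130 and 176 in 1w5nM and 82.9, 75.5 and 98.9 in 1w50nM (-0.80 and -0.54). TBX3, a T-box repressor, gave 233, 201 and 224 in 1w5nM and 110, 135 and 166 in 1w50nM (-0.69 and -0.51), and PCMTD2, a member of a protein methyltransferase family, gave 369, 329 and 393 in 1w5nM and 193, 215 and 272 in 1w50nM (-0.69 and -0.51). The vehicle arrays of TBX3 read 196, 324 and 23.2, with replicate 3 again far below the others.

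The 7 called genes that were higher with 50 nM act in unrelated processes. CYB561, a membrane cytochrome that passes electrons from ascorbate in secretory vesicles, gave 66.0, 115 and 74.6 in 1w5nM and 167, 195 and 162 in 1w50nM. Every 50 nM array was above every 5 nM array, a 2.10-fold rise (1.07 ± 0.19, adjusted p = 0.0445). It rests on 1 of 4 probe sets, since the other 3 had log2 differences of 0.10, 0.17 and 0.11 (unadjusted p = 0.581, 0.272 and 0.402, limma). KRT1, a keratin of differentiated epidermis, gave 29.8, 22.9 and 28.5 in 1w5nM and 56.9, 57.1 and 63.5 in 1w50nM (1.14 ± 0.20, adjusted p = 0.0445). IBA57, which helps to assemble mitochondrial iron-sulfur clusters, gave 62.1, 91.0 and 75.5 in 1w5nM and 109, 160 and 147 in 1w50nM (0.86 ± 0.18). These 3 had the largest rises of the 7. SOCS1, an inhibitor of JAK-STAT signalling, gave 120, 121 and 116 in 1w5nM and 157, 194 and 211 in 1w50nM (0.64 ± 0.14), and SULT1B1, a sulfotransferase of phenols and thyroid hormones, gave 72.9, 61.2 and 54.2 in 1w5nM and 108, 93.9 and 111 in 1w50nM (0.74 ± 0.16). PNPLA2, the lipase that begins the breakdown of stored triglyceride, gave 763, 768 and 601 in 1w5nM and 1082, 1033 and 947 in 1w50nM (0.53 ± 0.11). CLASRP, a splicing-related protein, gave 623, 713 and 619 in 1w5nM and 1009, 887 and 904 in 1w50nM (0.52 ± 0.10). All of these had an adjusted p of 0.0445, and the other probe set of PNPLA2 gave 0.13. With both arrays exchanged the log2 differences were 0.74 for CYB561, 0.40 for IBA57, 0.33 for PNPLA2, 0.29 for CLASRP, 0.17 for SULT1B1, 0.15 for KRT1 and 0.11 for SOCS1.

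The other genes with the highest differences did not pass the test. SCRG1, a secreted protein first found in scrapie-infected brain, gave 37.9, 20.9 and 10.8 in 1w5nM and 65.4, 52.5 and 53.7 in 1w50nM (1.29, adjusted p = 0.0518), at least 2.44-fold with 1 array of 1w5nM below the floor. DZANK1 gave 18.9, 17.7 and 23.3 in 1w5nM and 32.9, 45.8 and 59.4 in 1w50nM (1.17, adjusted p = 0.0523), and TRBV16, a variable segment of the T-cell receptor beta locus, gave 18.8, 19.8 and 29.1 in 1w5nM and 62.6, 36.6 and 50.6 in 1w50nM (1.14, adjusted p = 0.0548). All of these were dim, and their vehicle arrays spanned both doses in the case of DZANK1 and TRBV16. MYBPC1, a myosin-binding protein of slow muscle, gave 17.4, 67.8 and 60.2 in 1w5nM and 90.1, 84.8 and 81.1 in 1w50nM, and its difference (1.04) rested largely on 1 dim array, 1w5nM replicate 1. SLC6A7, a proline transporter of brain, gave 86.4, 18.8 and 61.7 in 1w5nM and 88.7, 87.1 and 109 in 1w50nM, where the single dim array was 1w5nM replicate 2. With the doubted arrays exchanged its log2 difference turned from 1.02 to -0.67. LOC100505498 gave 48.7, 34.3 and 39.0 in 1w5nM and 62.9, 60.4 and 130 in 1w50nM and turned likewise from 0.97 to -0.31. AOX1, aldehyde oxidase, gave 45.4, 26.9 and 41.1 in 1w5nM and 106, 68.0 and 50.1 in 1w50nM (0.95, adjusted p = 0.0845), and MS4A1, the B-cell antigen CD20, gave 49.0, 36.0 and 21.6 in 1w5nM and 74.0, 59.8 and 57.0 in 1w50nM (0.91, adjusted p = 0.0878).

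**Figure D2:**
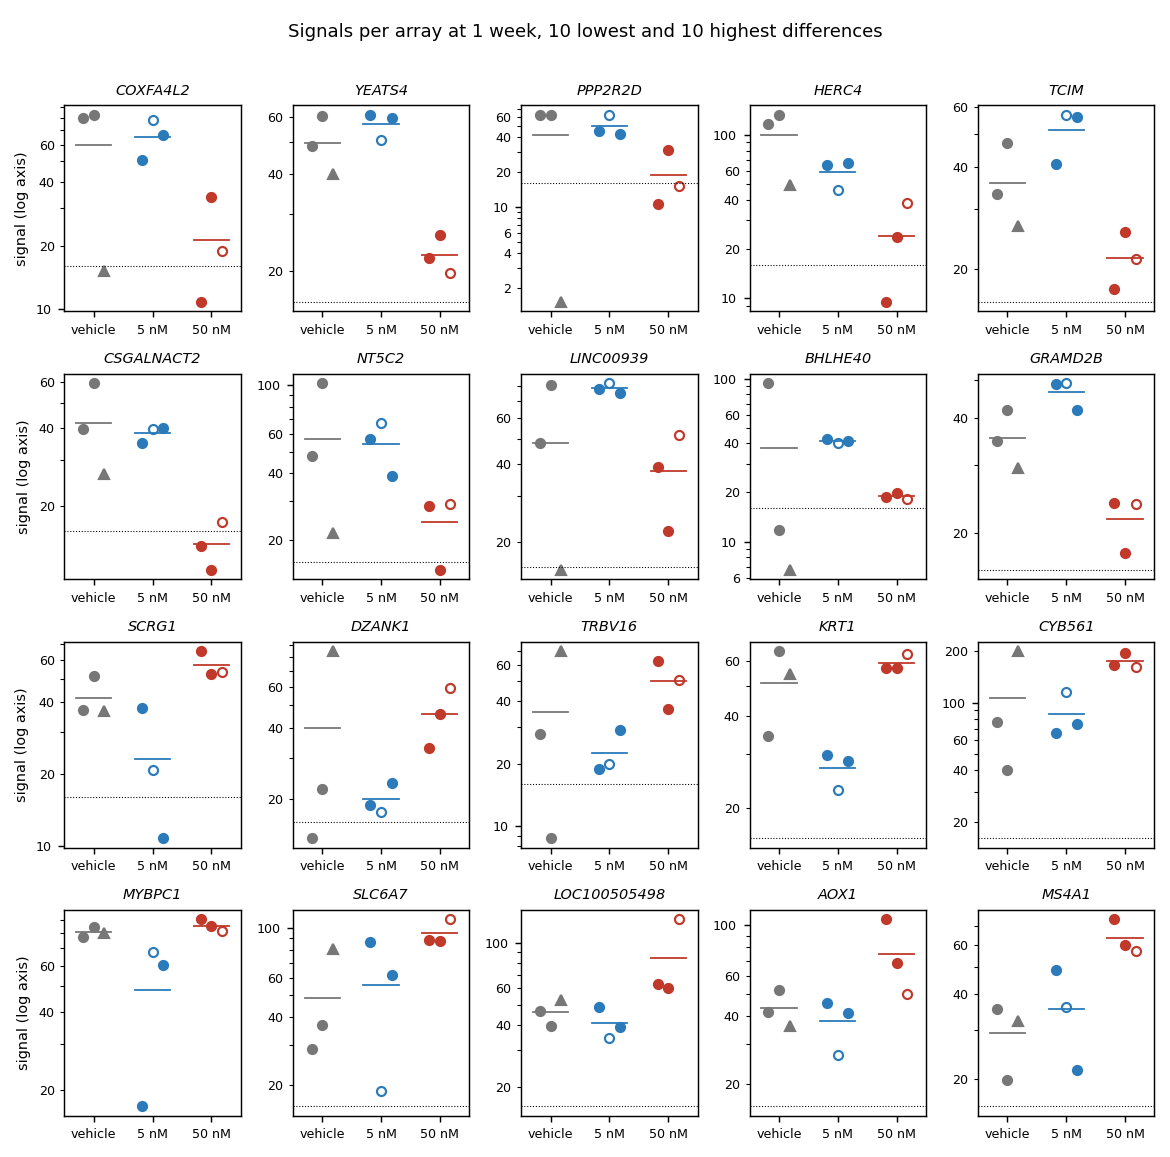
Signal on each array at 1 week (vertical, log axis) in vehicle, 5 nM and 50 nM cells for the 10 genes with the lowest (upper rows) and the 10 with the highest (lower rows) difference whose dose groups do not overlap. Horizontal lines are group means, the dotted line is the floor of 16, open circles are the arrays in doubt and triangles are vehicle replicate 3. The 50 nM arrays lie below all 5 nM arrays in the upper rows and above them in the lower rows, and most of these signals are below 100.

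Taken by gene lists, the lists with the lowest medians were those of transcriptional silencing (10 genes tabulated by the study, median -0.27), cholesterol synthesis (17 genes, -0.24), hypoxia-inducible genes (17 genes, -0.23) and amino acid synthesis and transport (21 genes, -0.20), beside -0.08 over all genes. After quantile normalization these medians were -0.12, -0.10, -0.07 and -0.12, beside 0.02. With both doubted arrays exchanged they were -0.07, -0.10, -0.24 and -0.09, beside -0.01. Of 40 lists, those with medians above 0 were respiratory complexes II to V (40 genes, 0.02), cytosolic ribosomal proteins (54 genes, 0.01) and interferon response with HLA class I (30 genes, 0.01). The lists are described by counts and medians only. Of all 9162 genes, 5862 had a difference below 0, 18.1% were lower at an unadjusted p under 0.05 (8.3% after quantile normalization) and 21.4% were lower with groups apart, and the shares of each list stand beside these.

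**Figure D3:**
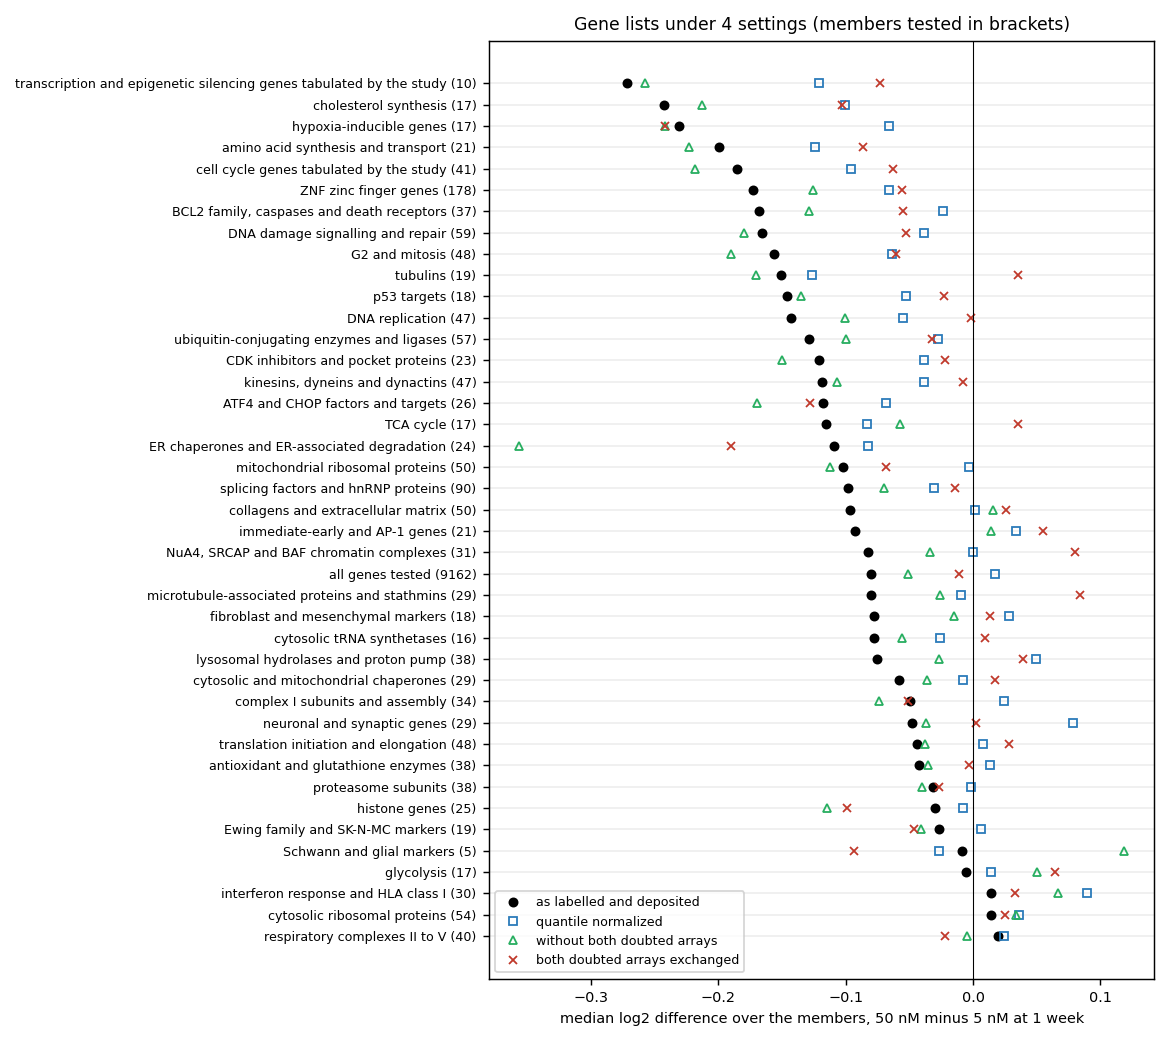
Median log2 difference between 50 nM and 5 nM at 1 week (horizontal) for each gene list and for all genes tested (vertical, number of members in brackets) under 4 settings. With both doubted arrays left out the list of ER chaperones moves from -0.11 to -0.36, and with both exchanged most medians lie nearer to 0, while that of the hypoxia-inducible genes stays at -0.24.

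Genes of amino acid supply had lower signals with 50 nM than with 5 nM, and several of them were already lower with 5 nM than in the vehicle. Of 21 genes of amino acid synthesis and transport, 18 had a difference below 0, 6 were lower at an unadjusted p under 0.05 (28.6%, beside 18.1% of all genes) and 7 were lower with groups apart (33.3%, beside 21.4%). After quantile normalization 1 of the 21 was lower and none higher at that threshold, beside 8.3% of all genes lower. ASNS, asparagine synthetase, gave 568, 561 and 621 in 1w5nM and 365, 440 and 533 in 1w50nM (-0.40 ± 0.13, adjusted p = 0.116), and its vehicle arrays read 1380, 1528 and 1813. CTH, cystathionine gamma-lyase, gave 135, 113 and 126 in 1w5nM and 95.2, 83.2 and 98.8 in 1w50nM (-0.43 ± 0.14) and 253, 182 and 355 in the vehicle. For both genes every vehicle array was above every 5 nM array and, as labelled, every 5 nM array above every 50 nM array. With both doubted arrays exchanged, the dose groups of both overlapped. CBS, which makes cystathionine, had a log2 difference of -0.34, GOT1, which makes aspartate in the cytosol, -0.32, and SLC7A11, the cystine importer, -0.30. None of these passed the adjusted threshold (adjusted p from 0.106 to 0.213, limma).

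The broader ATF4 and CHOP list had a median nearer to that of all genes. Its 26 genes had a median of -0.12 (-0.07 after quantile normalization, -0.13 exchanged). Of them, 6 were lower (23.1%, beside 18.1% of all genes) and 1 higher at an unadjusted p under 0.05, and 3 lower and 3 higher after quantile normalization. CEBPG, a partner of ATF4, gave 271, 246 and 285 in 1w5nM and 160, 194 and 210 in 1w50nM (-0.51 ± 0.13, adjusted p = 0.0654) and 444, 506 and 542 in the vehicle. XPOT, which exports tRNA from the nucleus, gave 1186, 1095 and 1241 in 1w5nM and 867, 858 and 1054 in 1w50nM (-0.35 ± 0.10) and 1482, 2030 and 2154 in the vehicle. Both were again ordered vehicle, 5 nM and 50 nM with no overlap as labelled. With both doubted arrays exchanged the log2 differences of ASNS, CTH, CEBPG and XPOT were -0.35, -0.30, -0.37 and -0.31. The dose groups of each of these genes then overlapped. PSAT1, of the serine pathway, is named after its values were seen because it was 1 of the 7 genes called with both arrays exchanged. It gave 931, 647 and 1000 in 1w5nM and 575, 589 and 919 in 1w50nM, so that the labelled groups overlapped (-0.32, adjusted p = 0.341), while the exchanged groups did not (-0.65, adjusted p = 0.0254). SRSF1, a splicing factor chosen for the same reason, behaved likewise, with 1793, 1286 and 1910 in 1w5nM and 1129, 1196 and 1774 in 1w50nM.

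Chaperones and degradation factors of the endoplasmic reticulum (ER) had a median below 0, near that of all genes as labelled and larger in size without the doubted arrays. Of 24 genes, 20 had a difference below 0 and 6 were lower at an unadjusted p under 0.05 (25%, beside 18.1% of all genes). Of the 24, 1 was called, beside 1.38% of all genes called lower. After quantile normalization 7 were lower and none higher, beside 8.3% and 9.93% of all genes. The median was -0.11 as labelled, -0.08 after quantile normalization, -0.36 without both doubted arrays and -0.19 with both exchanged. DNAJB9, an ER co-chaperone of BiP, was the called one and gave 314, 299 and 353 in 1w5nM and 199, 219 and 232 in 1w50nM (-0.57 ± 0.12, adjusted p = 0.0445, and -0.33 exchanged). HSP90B1, the ER form of HSP90, gave 572, 432 and 622 in 1w5nM and 322, 332 and 419 in 1w50nM (-0.59, and -0.56 exchanged). The groups of both were apart. EDEM1, which hands misfolded glycoproteins to degradation, had a log2 difference of -0.48, SDF2L1, a BiP cofactor, -0.45, and PDIA3, a disulfide isomerase, -0.35. HSPA5, which encodes BiP itself and is named after its values were seen, gave 1805, 1506 and 1937 in 1w5nM and 1237, 1254 and 1835 in 1w50nM, with overlapping groups as labelled (-0.30, adjusted p = 0.244) and -0.49 with both arrays exchanged.

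**Figure D4:**
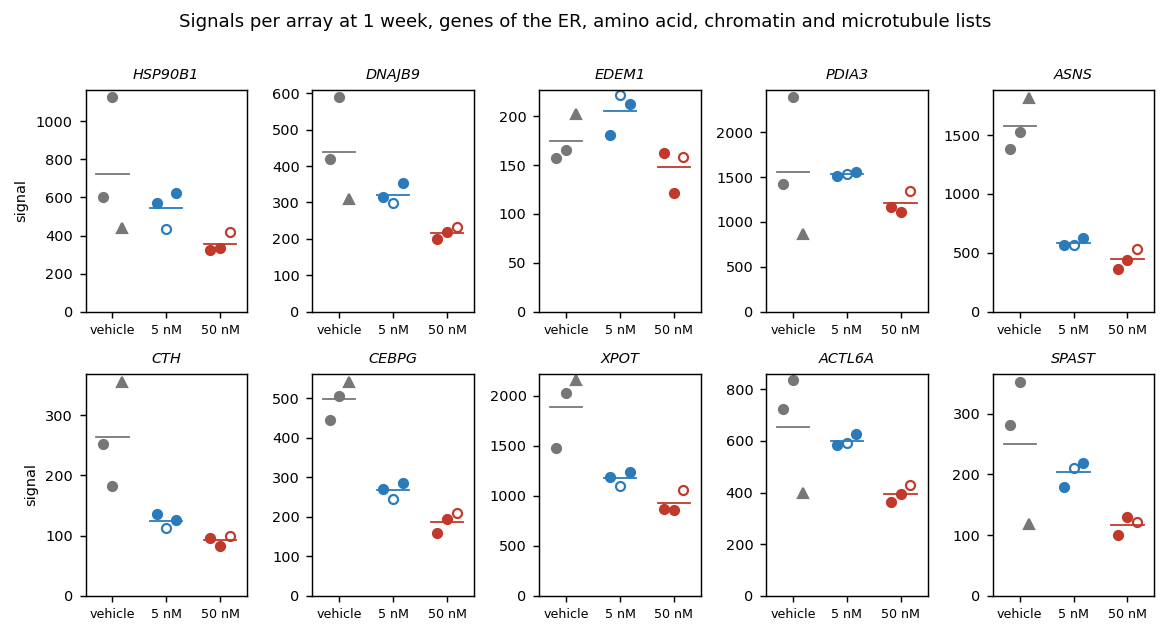
Signal on each array at 1 week (vertical, linear axis from 0) in vehicle, 5 nM and 50 nM cells for genes of the ER, amino acid, chromatin and microtubule lists. Horizontal lines are group means, open circles are the arrays in doubt and triangles are vehicle replicate 3. For ASNS, CTH, CEBPG and XPOT the vehicle arrays lie above the 5 nM arrays and these above the 50 nM arrays. That order is without overlap only as labelled, since the dose groups overlap with both doubted arrays exchanged. For ACTL6A and SPAST vehicle replicate 3 lies with the 50 nM arrays.

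Promoter sequences are shown for members of 3 lists (amino acid supply, ER, and G2 and mitosis), for each of which a response element of some genes is known. Only genes with a match are printed, and the shares of genes with a match follow. The sequences are those of RefSeq on GRCh38.p14, 300 bases around each gene start, and each is printed on the strand of its gene with the matched letters in capitals. The letters TGATGNAA, the core of the amino acid response element bound by ATF4, were searched on both strands, as were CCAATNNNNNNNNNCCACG, the ER stress element, and TTTGAA, the cell cycle homology region of mitotic genes. A match is a description and no evidence of binding.
ASNS, chr7:97872457-97872488, minus strand: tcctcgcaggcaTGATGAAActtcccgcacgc
GOT1, chr10:99430803-99430834, minus strand: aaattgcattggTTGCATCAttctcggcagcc
HSP90B1, chr12:103930204-103930246, plus strand: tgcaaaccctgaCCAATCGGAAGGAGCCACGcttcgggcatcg
HSPA5, chr9:125241379-125241421, minus strand: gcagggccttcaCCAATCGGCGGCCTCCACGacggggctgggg
KIF11, chr10:92593090-92593119, plus strand: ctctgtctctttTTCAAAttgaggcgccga
The amino acid element was found in 5 of 17 amino acid genes with a promoter in the table (29.4%) and in 3.67% of all 27305 promoters. The ER element was found in 6 of 22 ER genes (27.3%, beside 0.0806%) and the mitotic element in 27 of 40 genes of G2 and mitosis (67.5%, beside 15.4%). The amino acid element was also found in 6 of 22 genes of the ATF4 and CHOP list (27.3%). A hypoxia element, ACGTG, was found in 6 of 13 hypoxia-inducible genes (46.2%, beside 21.6% of all promoters) and a sterol element, TCACNCCAC, in 0 of 15 cholesterol genes (1.15%). The list members are tested genes. Among all 7483 tested genes with a promoter, the shares were 1.82% for the amino acid, 0.147% for the ER and 9.92% for the mitotic element. They were 26.6% for the hypoxia and 1.07% for the sterol element. Within the lists, genes with and without the element had median log2 differences of -0.27 and -0.15 for amino acid genes, -0.18 and -0.10 for ER genes and -0.16 and -0.14 for mitotic genes. The order was the other way for the ATF4 and CHOP list (-0.07 and -0.15) and for hypoxia-inducible genes (-0.20 and -0.23). Over all tested genes with a promoter, the medians with and without an element were -0.07 and -0.08 for the amino acid, -0.09 and -0.08 for the ER, -0.10 and -0.08 for the mitotic and -0.09 and -0.08 for the hypoxia element.

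Cholesterol synthesis is the pathway from acetyl-CoA through mevalonate and squalene to sterols. Of its 17 genes tested, 8 were lower (47.1%, beside 18.1% of all genes) and 1 higher at an unadjusted p under 0.05, and none was called. After quantile normalization 1 was lower and 1 higher at that threshold. INSIG1, which holds the sterol sensor in the ER, gave 303, 262 and 364 in 1w5nM and 217, 203 and 244 in 1w50nM (-0.48 ± 0.14, adjusted p = 0.0853). MSMO1, a sterol methyl oxidase, gave 678, 679 and 653 in 1w5nM and 422, 530 and 561 in 1w50nM (-0.42 ± 0.12, adjusted p = 0.0803). Exchanged, they had -0.41 and -0.24. The arrays of both genes were apart, and their vehicle arrays read 537, 422 and 221 and 1133, 1111 and 455, with replicate 3 again beside the 50 nM arrays. TM7SF2, a sterol reductase, had a log2 difference of -0.37 and LSS, which closes the sterol ring, -0.29 (0.01 exchanged). MVK, mevalonate kinase, stood on the other side with 744, 657 and 602 in 1w5nM and 837, 845 and 841 in 1w50nM (0.34, adjusted p = 0.0910), although the exchanged groups gave 0.10 and the mean of its probe sets -0.21. Over the whole list, vehicle replicate 3 was below the other vehicle arrays by a median of -0.99 on the log2 scale, and its part in these values was not tested.

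Hypoxia-inducible genes, most of them direct targets of the factor HIF1, had a list median of -0.23 as labelled, -0.24 without both doubted arrays and -0.24 with both exchanged. Of 17 genes, 13 had a difference below 0, 4 were lower (23.5%, beside 18.1% of all genes) and none higher at an unadjusted p under 0.05, and 2 were lower with groups apart (11.8%, beside 21.4%). After quantile normalization 2 were lower at that threshold and none higher. SLC2A3, a glucose transporter, gave 45.2, 41.6 and 59.7 in 1w5nM and 26.2, 29.1 and 34.4 in 1w50nM (-0.70 ± 0.22, adjusted p = 0.102), and KDM3A, a histone demethylase, gave 487, 473 and 460 in 1w5nM and 346, 337 and 424 in 1w50nM (-0.37 ± 0.12). Both pairs of groups were apart, and exchanged the differences were -0.52 and -0.26. PDK1, the kinase that turns off pyruvate dehydrogenase, is named after its values were seen, as the lowest of the list. It gave 72.5, 28.6 and 64.9 in 1w5nM and 24.6, 24.7 and 35.6 in 1w50nM, with overlapping groups as labelled (-0.88, adjusted p = 0.147). Only 1w5nM replicate 2 among the 5 nM arrays was in the range of 50 nM, and with both doubted arrays exchanged the PDK1 difference was -1.09 (unadjusted p = 0.00213, limma).

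Complex I, the target of rotenone, showed no common direction. Of 34 subunits and assembly factors, 21 were below and 13 above 0, the median was -0.05, and 4 were lower (11.8%, beside 18.1% of all genes) and 2 higher at an unadjusted p under 0.05. NDUFA5, an accessory subunit, gave 988, 859 and 873 in 1w5nM and 617, 680 and 787 in 1w50nM (-0.39 ± 0.11), and NDUFA2, another one, gave 1450, 1545 and 1446 in 1w5nM and 1896, 1805 and 1829 in 1w50nM (0.32 ± 0.07). They thus differed in direction, both with groups apart and neither called (adjusted p = 0.0813 and 0.0532), and the exchanged differences were -0.30 and 0.15. NDUFAF7, an assembly methyltransferase, was near the floor with 33.0, 27.9 and 31.0 in 1w5nM and 6.01, 17.0 and 10.4 in 1w50nM. The other respiratory complexes had a median of 0.02, with 2 of 40 genes lower and 3 higher at an unadjusted p under 0.05, and the glycolytic enzymes one of -0.01, with 1 of 17 lower.

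Tubulins and the gamma-tubulin complex, which nucleates microtubules, were below 0 in 16 of 19 members. At an unadjusted p under 0.05, 6 were lower (31.6%, beside 18.1% of all genes). The median was -0.15 as labelled, -0.13 after quantile normalization and 0.04 with both doubted arrays exchanged. TUBB4A, a neuronal beta-tubulin, was called and gave 347, 444 and 432 in 1w5nM and 235, 288 and 275 in 1w50nM (-0.61 ± 0.13, adjusted p = 0.0445, and -0.15 exchanged). TUBGCP5, of the gamma-tubulin complex, gave 110, 89.7 and 97.4 in 1w5nM and 54.2, 52.9 and 77.0 in 1w50nM (-0.71, and -0.56 exchanged). Both were apart. TUBGCP3 and TUBD1, delta-tubulin, had log2 differences of -0.58 and -0.61. Of 29 microtubule-associated proteins and stathmins, 5 were lower (17.2%, beside 18.1% of all genes) and none higher at an unadjusted p under 0.05. SPAST, spastin, which severs microtubules, was the called one and gave 179, 211 and 220 in 1w5nM and 101, 130 and 121 in 1w50nM (-0.79 ± 0.14, adjusted p = 0.0445), but -0.26 exchanged and -0.06 in its other probe set. CLASP2, which stabilizes microtubule ends, had a difference of -0.39.

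A list of NuA4, SRCAP and BAF chromatin complex genes, of which NuA4 and SRCAP contain YEATS4, held 4 called genes among 31, beside 1.38% of all genes called lower, while the median of the list was the same as that of all genes, -0.08. ACTL6A, an actin-related subunit of NuA4 and BAF, gave 586, 592 and 626 in 1w5nM and 364, 393 and 430 in 1w50nM (-0.61 ± 0.11, adjusted p = 0.0445). ACTR6, an actin-related subunit of SRCAP, gave 217, 263 and 259 in 1w5nM and 155, 163 and 137 in 1w50nM (-0.70 ± 0.13). PBRM1, the bromodomain subunit of PBAF, gave 771, 828 and 917 in 1w5nM and 627, 624 and 584 in 1w50nM (-0.45 ± 0.10). In all of these the arrays were apart, and with both doubted arrays exchanged their log2 differences were -0.30, -0.07 and -0.12. Since this list was built around YEATS4 after its value was known, its count is a description only. Of the 10 silencing genes, which the study had picked on these samples, all were below 0 and 4 were lower at an unadjusted p under 0.05, 2 of 10 after quantile normalization. RBL1, a pocket protein, gave 51.1, 67.5 and 60.7 in 1w5nM and 36.6, 41.8 and 31.9 in 1w50nM (-0.70, and 0.02 exchanged), and RCOR3, a corepressor of REST, 108, 104 and 131 in 1w5nM and 71.4, 78.3 and 94.0 in 1w50nM (-0.49, and -0.40 exchanged).

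Cell division genes were lower in the signals as deposited, but no more often than all genes after quantile normalization. Of 48 genes of G2 and mitosis, 15 were lower and none higher at an unadjusted p under 0.05 (31.2%, beside 18.1% of all genes), with a median of -0.16, and none was called. After quantile normalization 4 were lower and 1 higher, beside 8.3% and 9.93% of all genes, and the median was -0.06. KIF11, the spindle motor Eg5, gave 224, 252 and 251 in 1w5nM and 153, 207 and 164 in 1w50nM (-0.48 ± 0.14, adjusted p = 0.0802), and PLK4, which doubles centrioles, gave 271, 247 and 261 in 1w5nM and 159, 183 and 234 in 1w50nM (-0.46 ± 0.15, adjusted p = 0.103). The exchanged differences were -0.07 and -0.40. Both were apart, and MAD2L1, of the spindle checkpoint, followed with -0.37. The median of this list in vehicle replicate 3 against the other vehicle arrays was -0.72. Among 47 replication genes 13 were lower at an unadjusted p under 0.05 (27.7%), and 5 after quantile normalization. ORC2, of the origin recognition complex, was called and gave 169, 185 and 190 in 1w5nM and 113, 117 and 136 in 1w50nM (-0.58 ± 0.13, and -0.28 exchanged), and RFC2, of the clamp loader, had -0.50. RB1, the retinoblastoma protein, gave 387, 395 and 387 in 1w5nM and 210, 297 and 266 in 1w50nM (-0.61 ± 0.13, adjusted p = 0.0462, and -0.23 exchanged).

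Of 59 genes of DNA damage signalling and repair, 16 were lower (27.1%, beside 18.1% of all genes) and 2 higher at an unadjusted p under 0.05. Of the 59, 2 were called, both lower, beside 1.38% of all genes called lower. After quantile normalization 10 were lower and 2 higher. BRCA1, of homologous recombination, gave 190, 241 and 210 in 1w5nM and 137, 144 and 113 in 1w50nM (-0.70 ± 0.14, adjusted p = 0.0445, and -0.27 in its other probe set), and its groups were apart as labelled but not with both doubted arrays exchanged (0.02). REV3L, the catalytic subunit of a translesion polymerase, gave 137, 153 and 129 in 1w5nM and 86.7, 96.0 and 84.7 in 1w50nM (-0.65 ± 0.13, and -0.08 exchanged), and ATR, the replication stress kinase, had -0.47 (adjusted p = 0.0512). Among 37 genes of the BCL2, caspase and death receptor families, 9 were lower (24.3%, beside 18.1% of all genes) and 3 higher at an unadjusted p under 0.05. After quantile normalization 5 of these families were lower and 5 higher. MCL1, which protects from apoptosis, gave 932, 1080 and 934 in 1w5nM and 675, 792 and 739 in 1w50nM (-0.42), and CASP2, a caspase, 122, 74.4 and 101 in 1w5nM and 175, 154 and 146 in 1w50nM (0.70). Their groups were apart in opposite directions, neither was called, the exchanged differences were -0.05 and 0.05, and the mean of the CASP2 probe sets gave -0.06.

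At 4 weeks the difference between the doses was larger and not the same. The standard deviation of the log2 differences over genes was 0.51 at 4 weeks and 0.26 at 1 week, and 698 genes were lower (7.62%) and 687 higher (7.5%) with 50 nM at 4 weeks. The differences at the 2 times, which share no array, correlated at 0.09 across genes. Of the 126 genes lower at 1 week, 62 (49.2%) were below 0 at 4 weeks, beside 48.4% of all genes. The difference between the weeks was itself called for 1270 genes (13.9%), among them 68 of the 126. The 126 were chosen on their 1-week difference, which is part of this contrast, so that count was largely set by the choice. LUM, TBX3 and FZD1 were lower with 50 nM at both times, by log2 -2.35, -2.45 and -1.31 at 4 weeks. CYB561 was higher at both (1.07 and 1.40, adjusted p = 6.49e-04 at 4 weeks). In contrast, SLC2A3, PDK1 and CTH, below 0 but not called at 1 week, were higher with 50 nM at 4 weeks (1.49, 1.06 and 0.97, adjusted p = 0.00670, 0.00776 and 0.00744). ERBIN and YEATS4 were close to level at 4 weeks (0.18 and 0.15).

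**Figure D5:**
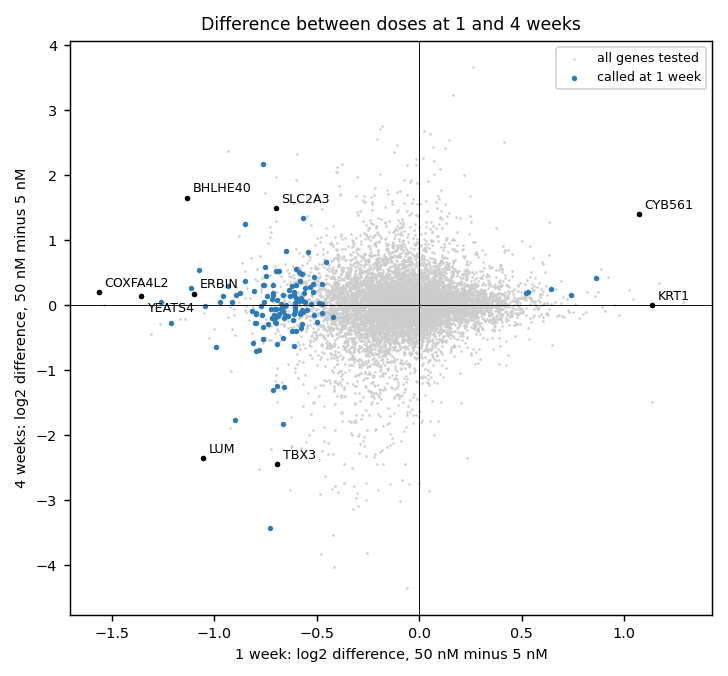
Log2 difference between 50 nM and 5 nM at 4 weeks (vertical) against that at 1 week (horizontal) for 9162 genes, with genes called at 1 week in blue and named genes in black. Genes lower at 1 week lie on both sides of 0 at 4 weeks, with LUM and TBX3 far below and BHLHE40 and SLC2A3 above.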

How the data were processed

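Total RNA of SK-N-MC cells was labelled as cRNA and hybridized to Affymetrix Human Genome arrays. The deposited signal intensities are model-based expression indexes that the authors computed in dChip after normalizing the arrays; the method of normalization is not given in the sources used here. They are linear, from 0.46 to 11258.4. Of 22283 probe sets, 19065 name 1 gene. A filter kept probe sets reaching 50 in 3 or more of the 18 arrays, and the brightest per gene was read, which left 9162 genes. Signals under a floor of 16 were raised to 16 before log2 transformation. limma 3.58.1 in R 4.3.3 was fitted to the 6 arrays with an intensity trend (4 residual and 8.36 prior degrees of freedom), with Benjamini-Hochberg adjustment over all genes, and was tested on simulated data. Differences are 50 nM minus 5 nM, ± is the SE, and n is 3 arrays a group. The 3 arrays limit the precision, and p-values measure the spread between them.

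Members, gene lists and tests were chosen with earlier results of these data known. Genes named are called ones, the 10 lowest and 10 highest differences with groups apart, up to 5 such members of each list, and the reference genes; others are marked. Alternatives are other floors, filters, scalings, probe set rules and fits, and leaving out or exchanging arrays. Some genes are not analysed here.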

Additional observations from a re-analysis of the deposited data

Results flagged for a closer look

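The difference between 50 nM and 5 nM was not the same at both times for 1270 of 9162 genes (limma, interaction of dose and week, adjusted p under 0.05), and 27 of the 84 genes named are among them. Most named genes were chosen on their 1-week difference, which is part of this contrast, so the count of 27 was largely set by the choice. The values that follow are the log2 difference at 1 week minus that at 4 weeks. Those of the hypoxia-responsive genes were -2.79 for BHLHE40, -2.19 for SLC2A3 and -1.94 for PDK1, each with a difference below 0 at 1 week and above 0 at 4 weeks. For BHLHE40 the 50 nM arrays of 4 weeks were widely spread (mean 117.5, SD 120). Its difference at 4 weeks was not called (adjusted p = 0.0750, limma). COXFA4L2 had -1.77, but at 4 weeks its means were 17.2 with 5 nM and 15.6 with 50 nM, at the floor, and give no direction. In amino acid supply, CTH had -1.4, GOT1 -1.25 and CEBPG -0.87, and in the ER EDEM1 had -1.54. Among chromatin and cell cycle genes, YEATS4 had -1.5, PBRM1 -1.11, RBL1 -1.22, RB1 -0.77, ORC2 -0.69, REV3L -1.49 and RIF1 -0.73. On the microtubule side, CLASP2 had -1 and TUBGCP3 -0.68, and in complex I NDUFA5 had -0.6. Of the other low genes, ERBIN had -1.28, GRAMD2B -1.38, TCIM -1.31 and CSGALNACT2 -0.94. A positive value was found for LUM (1.3) and TBX3 (1.75), which were lower by more at 4 weeks, and for KRT1 (1.14), which was level at 4 weeks. TRBV16 (2.62) and LOC100505498 (1.13) also had positive values and were above 0 at 1 week and below 0 at 4 weeks. The 50 nM arrays of TRBV16 at 4 weeks were widely spread (mean 46.2, SD 57.5), with 1 below 16. Its difference at 4 weeks was not called (adjusted p = 0.154, limma). The 27 genes were counted with the groups as labelled. Without both doubted arrays or with both exchanged, 693 and 723 genes differed between the weeks.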

How the results depend on the processing

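The number of called genes moved with nearly every choice. The direction of named genes seldom turned, but most were named because they were called or had groups apart as labelled. Their kept signs were largely set by that choice and are no measure of stability. Against 133 called, 0 were called with a floor of 32, quantile normalization, median scaling, the 9 arrays of 1 week in the fit or the methods' unpaired test on linear values (1610 genes at its unadjusted threshold). Further, 1 was called with all 18 arrays or without a filter, 30 without an intensity trend, 237 with at least 100 on 3 arrays, 2292 with array weights, 878 with both doubted arrays left out and 7 with both exchanged. Against 2025 genes at an unadjusted p under 0.05, there were 1194 with all 18 arrays, 853 with the 9 arrays of 1 week, 3218 over every probe set, 3590 with array weights and 1092 with both arrays exchanged. Against 2481 genes with arrays apart, there were 3836 over every probe set, 5098 without both doubted arrays, where only 2 arrays a group remain, and 1580 exchanged. Against 1270 genes differing between the weeks, there were 693 without both and 723 with both exchanged. Leaving out 1 array at a time gave 0 to 503 called, 1242 to 2220 at an unadjusted p under 0.05, 2906 to 3956 apart and 753 to 1799 differing between weeks, the lowest without 4w50nM replicate 1.

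Deviations of arrays with the same replicate number correlated at 0.04, 0.22 and 0.32 across genes, and those with different numbers at -0.30 to 0.14. Not every array correlated best with its own number. The main fit did not take the numbers as pairs, and whether they mark shared experiments was not tested. The replicate block called 637 genes, all 133 among them. Of the list medians, 709 stayed within the spread and 171 moved.

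The sign of a named gene turned in 18 cases and was kept in 1797 others, counts that the choice of named genes largely set. With both doubted arrays exchanged, SLC6A7 came to -0.67, LOC100505498 to -0.31, LSS to 0.0102, BRCA1 to 0.0249, RBL1 to 0.019, GAPDH to 0.0286 and ACTB to 0.0098. The mean of probe sets gave -0.21 for MVK, -0.0552 for CASP2 and 5e-04 for ACTB. Median scaling gave 0.0331 for B2M, 0.0013 for GAPDH and 0.0872 for ACTB, which also turned with quantile normalization (0.0332), with array weights (0.0118) and without both doubted arrays (0.007), and which lay between -0.0401 and 0.0466 with 1 array left out. The cause was not tested. Signal over background limits dim genes, whose folds are lower bounds where a group lies below 16.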

Other observations

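Zinc finger genes of the ZNF series, mostly transcriptional repressors, were the largest list. Of 178 tested, 40 were lower (22.5%, beside 18.1% of all genes) and 2 higher at an unadjusted p under 0.05 and 134 had a difference below 0, with a median of -0.17 as deposited and -0.07 after quantile normalization, where 24 were lower and 14 higher. Of 30 genes of the interferon response and HLA class I, 1 was lower (3.33%) and 3 higher, with medians of 0.01 and 0.09.

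Genes of chromosome 8 varied together between arrays that share a label. Over its 359 tested genes, the median log2 signal relative to the mean of the other arrays of 1 week was 0.05, 0.36 and -0.46 in the 3 vehicle arrays, beside 0.02, 0.03 and -0.09 over all genes. It was 0.14, 0.06 and 0.14 in 1w5nM and -0.07, -0.05 and 0.05 in 1w50nM, beside -0.02 to 0.09 over all genes, and the arrays in doubt, 1w5nM replicate 2 and 1w50nM replicate 3, read 0.06 and 0.05. Between the doses, the median of chromosome 8 was -0.14 as labelled, -0.19 without both doubted arrays and -0.11 exchanged, the lowest of all chromosomes when exchanged. At 4 weeks it was -0.50. Of the 7 genes called with both arrays exchanged, 3 are on chromosome 8, and so are 29 of the 228 genes lower under both groupings. This chromosome was singled out after the values were seen, and no test was made.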
